A study of Mus musculus with 130 samples.

Results

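The transcripts of 9 genes of hepatic glucose metabolism and insulin response were followed in mouse liver: G6pc, Pck1, Fbp1, Pcx, Pklr, Slc2a2, Irs2, Foxo1 and Ppargc1a. The genes were taken as a named list, with no threshold on their values. All 9 were found by symbol among the 35274 genes of the diet table and the 35711 genes of the strain table. All 9 passed the filter on low counts in both.

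The liver takes up glucose after a meal and makes it during fasting. Pyruvate carboxylase (Pcx), phosphoenolpyruvate carboxykinase (Pck1), fructose bisphosphatase (Fbp1) and the catalytic subunit of glucose 6-phosphatase (G6pc) carry out the steps of gluconeogenesis that bypass the irreversible steps of glycolysis. Liver pyruvate kinase (Pklr) catalyses the last step of glycolysis and is induced by carbohydrate feeding, and Slc2a2 encodes GLUT2, the main glucose transporter of hepatocytes. Insulin acts in the liver in part through the receptor substrate Irs2 and through the forkhead factor Foxo1, which insulin keeps out of the nucleus. With its coactivator PGC-1α, the product of Ppargc1a, Foxo1 is known to drive G6pc and Pck1 in fasting.

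Bulk liver RNA of male mice, from the large lobe, was sequenced. The diet study used C57BL/6J animals, 3 on each of 5 diets: chow, 50 ppm iron (sufficient), 500 ppm (elevated), carbonyl iron at 2% (20000 ppm), and that last dose in a diet whose fibre is named as cellulose. In the strain panel every animal ate chow for 4 weeks before 6 weeks of 2% carbonyl iron, and no strain had an unloaded control. A single mouse stood for each of 114 inbred strains, apart from a pair for 129X1/SvJ. By family these were 56 BXD strains, 20 AXB/BXA strains, 4 BXH strains, 3 CXB strains and 31 inbred strains of no recombinant set. Among the 56 is BXD24/TyJ-Cep290<rd16>/J, whose label names the rd16 allele of Cep290, and it was counted as a BXD strain throughout. Neither the hour of collection nor the feeding state of the mice is given in the sources used here, and both are known to set the level of several of these genes. The iron content of the chow is likewise not given there. The labels say nothing else of the chow, so in comparisons with chow, iron and the rest of the diet cannot be told apart. Fibre is named for the cellulose diet alone, so between that diet and 50 ppm the iron dose and the fibre cannot be told apart.

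Diet libraries summed to between 10420708 and 20357169 counts, and panel libraries to between 9407880 and 20572879 counts. Replicate 2 of the 500 ppm group, the most deeply counted diet library, lay apart from the other 2 mice of its group on the first principal component. Defining hepatocyte transcripts such as Alb and Apoa1 were abundant in every diet mouse, with a list of 10 summing to between 90449 and 112780 CPM (the count as a share of the library total after TMM scaling, the unit of all levels below unless TPM is named). A list of 9 pancreas markers summed to at most 0.172 CPM. Of 12 macrophage markers, 11 rose on 2% iron against 50 ppm, and their sum was 700.4 to 758 CPM against 179 to 292 CPM. Of 6 tested erythroid markers 5 rose and 1 fell (median log2 3.71), with sums of 323 to 478 against 68.0 to 109.6 CPM. Of 10 pericentral hepatocyte markers 4 fell, with sums of 4807 to 5353 against 8466 to 9884 CPM. The part of these shifts in the results below was not tested. In bulk RNA, fewer cells of a type and less RNA per cell cannot be told apart.

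The stretches before the transcription start of 4 of the genes are shown because G6pc, Irs2, Pck1 and Ppargc1a were positively correlated across strains (below), and because each holds a short motif of a hormonal or nutrient-linked factor. They are RefSeq sequences on GRCm38.p6, written 5′ to 3′ on the gene's strand and ended before the most upstream annotated start: G6pc at chr11:101367466-101367560 (plus strand), Irs2 at chr8:11008930-11009179 (minus strand), Pck1 at chr2:173152823-173153047 (plus strand) and Ppargc1a at chr5:51567727-51567975 (minus strand). Capitals mark the matches.
G6pc: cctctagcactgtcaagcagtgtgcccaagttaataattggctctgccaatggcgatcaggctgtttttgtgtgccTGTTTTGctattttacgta
Irs2: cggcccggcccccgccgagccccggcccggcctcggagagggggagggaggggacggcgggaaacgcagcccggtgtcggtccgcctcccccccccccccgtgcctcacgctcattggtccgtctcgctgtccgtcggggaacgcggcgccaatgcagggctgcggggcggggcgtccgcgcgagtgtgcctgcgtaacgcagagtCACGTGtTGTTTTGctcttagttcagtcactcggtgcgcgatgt
Pck1: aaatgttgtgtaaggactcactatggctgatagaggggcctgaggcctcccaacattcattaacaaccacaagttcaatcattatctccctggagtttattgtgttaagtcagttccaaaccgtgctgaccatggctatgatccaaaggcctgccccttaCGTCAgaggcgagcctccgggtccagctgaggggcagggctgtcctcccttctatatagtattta
Ppargc1a: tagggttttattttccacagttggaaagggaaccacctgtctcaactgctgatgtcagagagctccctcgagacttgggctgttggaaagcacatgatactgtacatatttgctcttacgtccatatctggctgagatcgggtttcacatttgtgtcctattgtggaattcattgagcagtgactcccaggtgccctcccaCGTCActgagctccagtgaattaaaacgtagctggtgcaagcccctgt
The capitals in G6pc are TGTTTTG, the core of the insulin response element to which forkhead factors bind, at position -174 from the RefSeq start. Irs2 holds the E-box CACGTG at -44 and, 1 base further on, TGTTTTG at -37. CACGTG was also found in Pcx, at -248, and the windows of Foxo1, Fbp1, Pklr and Slc2a2 held none of the motifs searched. Pck1 holds CGTCA, the core of the cyclic AMP response element read on the other strand, at -90, and Ppargc1a holds CGTCA at -49. The search covered both strands of windows from 250 bases before to 50 bases after the start, 11 windows for the 9 genes. Among 32851 mouse windows of that length, 6.28% held TGTTTTG or CAAAACA, 20.8% held TGACG or CGTCA, and 7.15% held CACGTG. Neither TGTTTAC, found in 3.65% of windows, nor the full TGACGTCA, which contains the core on both strands and was found in 1.79%, was in any of the 11 windows. A match describes the letters and is not a measured binding site. No motif searched was in all 4 genes shown, and Foxo1, also correlated with Pck1 and Ppargc1a, held no match. A link of motifs to the correlations was not tested.

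Per unit of transcript length, Pck1 and Fbp1 were the most abundant of the 9 and the regulators Foxo1, Irs2 and Ppargc1a the least. In the 15 diet mice Pck1 lay between 624.3 and 1299 TPM (the share of all transcripts after division by length) and Fbp1 between 515 and 819 TPM. Pcx, Slc2a2, Pklr and G6pc had medians of 216.9, 203, 194 and 145 TPM. Foxo1 had a median of 11.1 TPM, Irs2 of 5.76 TPM and Ppargc1a of 3.70 TPM. In the panel the regulators were again the lowest and Pck1 the highest, with median TPM from 101 (G6pc) to 789 (Pck1) for the 6 enzyme and transporter genes and from 4.72 (Ppargc1a) to 8.41 (Foxo1) for the other 3.

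**Figure D1:**
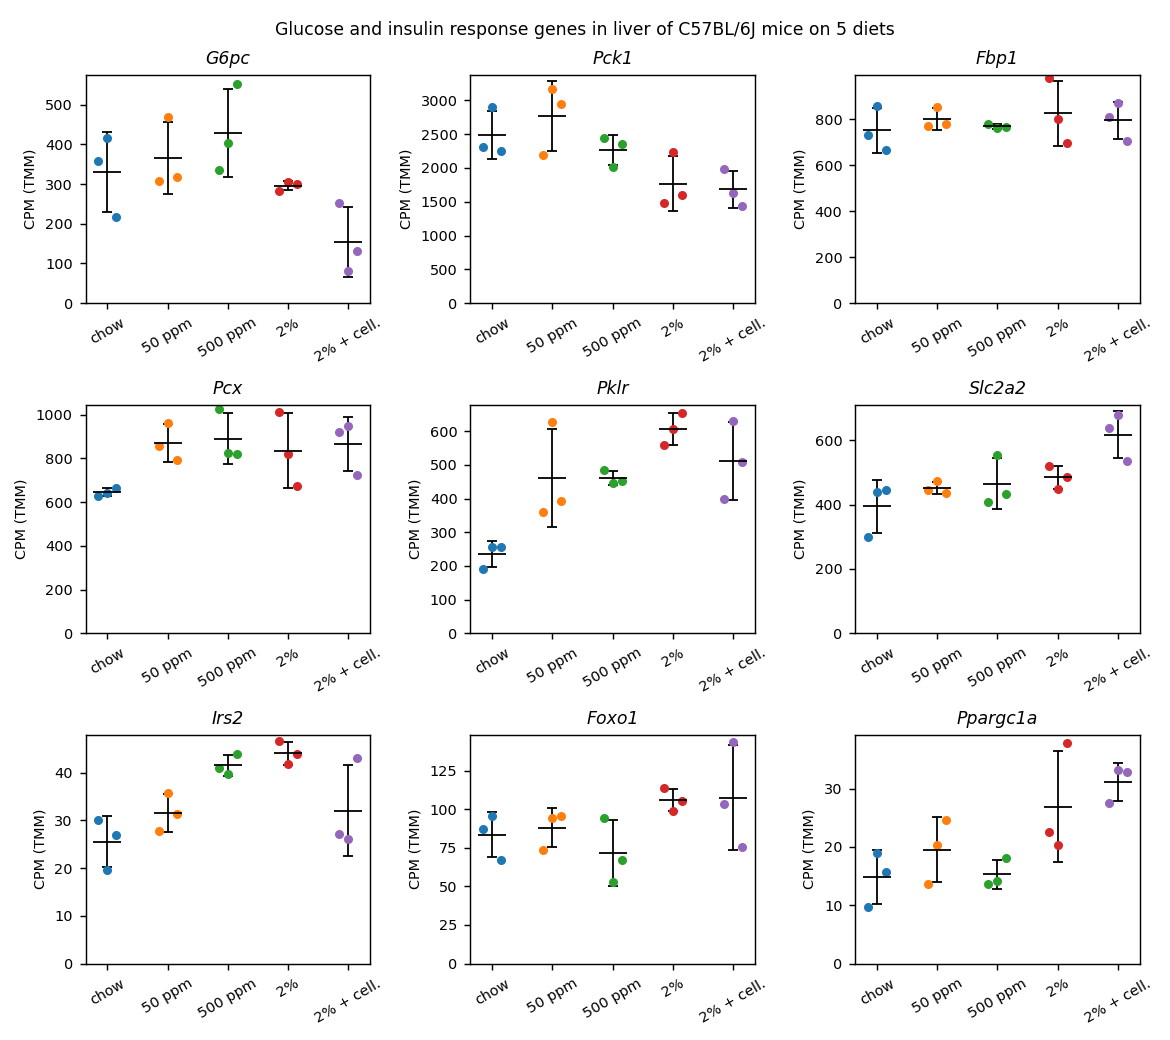
CPM (vertical axes, from 0) of the 9 genes in each of the 15 C57BL/6J mice by diet, with the mean and SD of 3 mice as bars. Pck1 was lowest on both 2% iron diets, G6pc on the diet with cellulose, and Pklr and Irs2 on chow.

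Among the gluconeogenic enzymes, only Pck1 was called between 2% iron and 50 ppm, the comparison of high with sufficient iron. Pck1 stood at 2192, 2947 and 3173 CPM in the 3 mice on 50 ppm and at 1477, 1596 and 2229.5 CPM in the 3 mice on 2% iron. The highest mouse on 2% iron overlapped the lowest mouse on 50 ppm. Pck1 fell by 0.65 on the log2 scale (SE 0.19), from 2771 ± 513.7 to 1768 ± 405 CPM (SD, n = 3), with an adjusted p of 0.0321 (edgeR quasi-likelihood test, Benjamini-Hochberg over all genes). The call was lost in 7 of 13 alternative analyses, with adjusted p from 0.00451 to 0.113 over all 13. They include leaving out replicate 1 or 3 of the 2% iron group (0.113 and 0.111) or replicate 2 or 3 of the 50 ppm group (0.109 and 0.0857). Pck1 was thus the 1 of 9 members called in this comparison, where 15.7% of all 13560 tested genes were called and 7.17% were called lower. A share of 1 in 9 is near that background.

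On the 2% iron diet with cellulose, both Pck1 and G6pc were lower than on 50 ppm. Iron dose and fibre cannot be told apart in this comparison. Pck1 stood at 1439.7, 1629 and 1980.3 CPM, below every mouse on 50 ppm, and fell by 0.72 on the log2 scale (SE 0.19, adjusted p = 0.0112 by edgeR). The Pck1 call was lost in 2 of 13 alternatives, the limma fits on log2 TPM (adjusted p = 0.0686 and 0.0673). G6pc, whose product releases free glucose, stood at 80.6, 132 and 251.3 CPM with cellulose and at 307, 318 and 469 CPM on 50 ppm. The ranges were separate, and the cellulose mice differed among themselves more than those of the 2% iron group, at 283, 299 and 304 CPM. G6pc fell by 1.24 on the log2 scale (SE 0.34), from 365 ± 90.7 to 155 ± 87.6 CPM (SD, n = 3), with an adjusted p of 0.0156 by edgeR. That call was lost without replicate 2 or 3 of the cellulose group (0.0524 and 0.0517) or replicate 2 of the 50 ppm group (0.0627). Dbp, an output gene of the circadian clock, was at 81.6 CPM in the cellulose mouse with the least G6pc, at 15.4 CPM in the next and at 55.8 CPM in the mouse with the most. Over all 15 diet mice Dbp ran from 1.60 to 81.6 CPM, and its part in the G6pc values was not tested.

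Fbp1 and Pcx were not called in any of the 7 diet comparisons. The log2 differences of Fbp1 lay between -0.09 and 0.14 with an SE of 0.13, and the means of the 5 diets between 753 and 827 CPM, with every neighbouring pair of diets overlapping. Pcx stood at 630.4, 641 and 666 CPM on chow, below every mouse on the other 4 diets, whose lowest value was 673 CPM. Its log2 difference between 2% iron and chow was 0.37 (SE 0.15, adjusted p = 0.0966 by edgeR), and between chow and 50 ppm it was -0.43 (SE 0.15, adjusted p = 0.325).

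Pklr had the largest log2 difference of the 9 genes over the 7 diet comparisons. Its 3 mice on chow stood at 191, 256.1 and 257 CPM, those on 50 ppm at 359.7, 394 and 628 CPM, and those on 2% iron at 559, 608 and 655 CPM. Every chow mouse was below every mouse of the other diets, while the 50 ppm and 2% iron mice overlapped. Between chow and 2% iron Pklr rose by 1.37 on the log2 scale (SE 0.21), from 235 ± 38.2 to 608 ± 47.98 CPM (SD, n = 3), with an adjusted p of 0.000514 by edgeR, and it was called in all 13 alternatives. Against 50 ppm the difference on 2% iron was 0.40 (SE 0.20, adjusted p = 0.201). Between chow and 50 ppm it was -0.97 (SE 0.20, adjusted p = 0.0644), a difference that passed the threshold in 4 of 13 alternatives. Pklr averaged 460.4 CPM on 500 ppm and 461 CPM on 50 ppm.

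Slc2a2 was highest with cellulose. The 3 cellulose mice stood at 537, 637 and 679 CPM and the 3 mice on 50 ppm at 437, 444 and 472 CPM. The ranges were separate. Slc2a2 rose by 0.45 on the log2 scale (SE 0.16), from 451 ± 18.7 to 617 ± 73.0 CPM (SD, n = 3), with an adjusted p of 0.0415 by edgeR. The call was lost without replicate 1 or 2 of the cellulose group (0.106 and 0.140) and without any 1 of the 50 ppm mice (0.103, 0.0707 and 0.106). Against the other 2% iron group the difference was 0.35 (SE 0.16, adjusted p = 0.366).

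Of the insulin signalling genes, Irs2 was higher on 2% iron than on chow. Irs2 stood at 19.6, 27.05 and 30.1 CPM on chow, at 27.7, 31.3 and 35.7 CPM on 50 ppm, at 39.8, 40.97 and 44 CPM on 500 ppm and at 41.8, 43.9 and 46.6 CPM on 2% iron. All mice on 500 ppm and 2% iron were above all mice on chow and 50 ppm. From chow to 2% iron Irs2 rose by 0.78 on the log2 scale (SE 0.18), from 25.6 ± 5.41 to 44.1 ± 2.40 CPM (SD, n = 3), with an adjusted p of 0.00735 by edgeR, and the call held in all 13 alternatives. From 50 ppm to 2% iron the difference was 0.48 (SE 0.18, adjusted p = 0.0884), and from 50 to 500 ppm it was 0.40 (SE 0.18, p = 0.0452 before adjustment and 1 after it, edgeR). With cellulose 2 mice lay at 26.02 and 27.05 CPM and the third at 43.1 CPM. In those mice Dbp was at 81.6, 55.8 and 15.4 CPM. In the 500 ppm mice, with Irs2 at 39.8, 40.97 and 44 CPM, Dbp was at 57.1, 1.81 and 6.04 CPM. The part of Dbp in the Irs2 values was not tested.

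Ppargc1a, the coactivator gene, was called only from chow to 2% iron, and Foxo1 in no comparison. Ppargc1a stood at 9.78, 15.7 and 18.9 CPM on chow and at 20.4, 22.6 and 37.8 CPM on 2% iron, ranges that do not overlap. It rose by 0.86 on the log2 scale (SE 0.27), from 14.8 ± 4.64 to 26.9 ± 9.49 CPM (SD, n = 3; adjusted p = 0.0344 by edgeR). The call was lost in 6 of 13 alternatives, among them without replicate 3 of the 2% iron group (0.183) or replicate 1 or 3 of the chow group (0.126 and 0.0668). The cellulose mice stood at 27.5, 32.8 and 33.2 CPM, above all mice on 50 ppm, with a difference of 0.67 (SE 0.27, adjusted p = 0.0737). Foxo1 had means of 83.4 CPM on chow, 87.9 CPM on 50 ppm, 71.6 CPM on 500 ppm, 106 CPM on 2% iron and 108 CPM with cellulose, and its difference between 2% iron and 50 ppm was 0.27 (SE 0.23, adjusted p = 0.465).

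**Figure D2:**
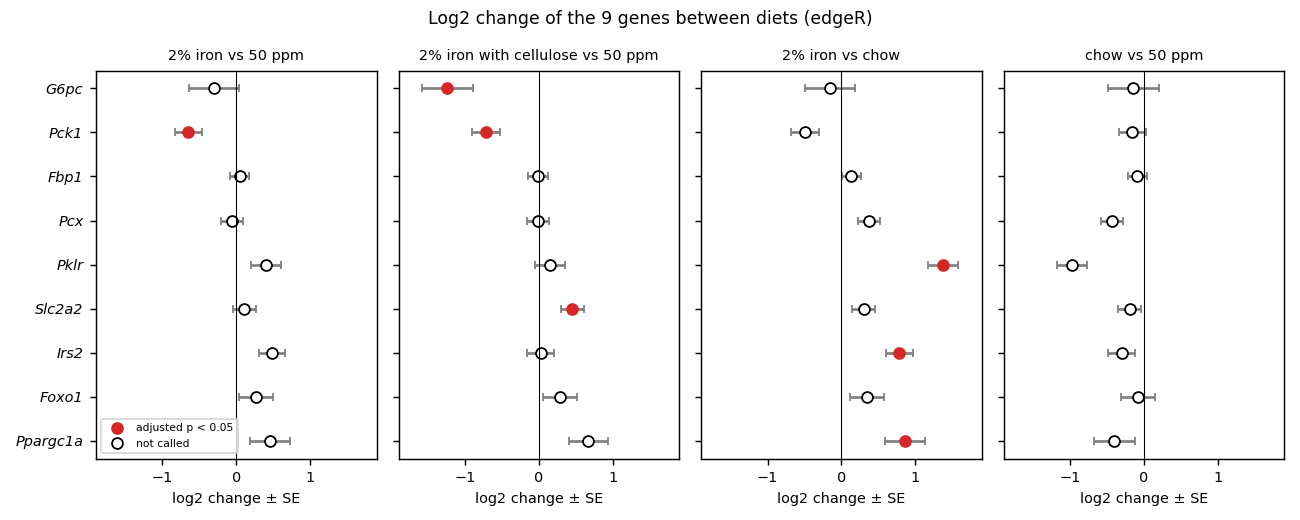
Log2 change with its standard error (horizontal axes) of the 9 genes in 4 diet comparisons, with red points at an adjusted p under 0.05. Pck1 was the only red point for 2% iron against 50 ppm, and Pklr, Irs2 and Ppargc1a were the red points for 2% iron against chow.

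Between 2% iron and chow 3 of 9 were called, all higher, where 22.8% of tested genes were called and 11.9% were called higher. These genes, Pklr, Irs2 and Ppargc1a, were not called between 2% iron and 50 ppm (adjusted p = 0.201, 0.0884 and 0.271 by edgeR). Between the cellulose diet and 50 ppm 3 of 9 were called, where 29.7% of tested genes were called, 15.4% higher and 14.3% lower. The count fell to 1, Pck1, without replicate 2 of the cellulose group or replicate 2 of the 50 ppm group. The comparisons share groups, since the same 2% iron, 50 ppm and chow mice enter several of them.

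Whether the ranges of 3 mice were apart gives a second count, with no test. Between 2% iron and 50 ppm the ranges were apart for 3 of 9 members (36.8% of all tested genes), with Irs2 and Foxo1 higher and G6pc lower. Between 500 and 50 ppm they were apart for Irs2 alone (7.25% of tested genes), and between 2% iron and 500 ppm for 4 members (29.9%), with Pklr, Foxo1 and Ppargc1a higher and G6pc lower. Between 2% iron and chow 7 of 9 were apart (40.1%): Pcx, Pklr, Slc2a2, Irs2, Foxo1 and Ppargc1a were above chow and Pck1 was below it. Only Fbp1 and G6pc overlapped there. Between chow and 50 ppm Pcx and Pklr were apart, both lower on chow (17.1%). With cellulose, Slc2a2 was above and G6pc below the other 2% iron group (17.4%), and against 50 ppm Slc2a2 and Ppargc1a were above and G6pc and Pck1 below (44.5%).

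No member was called by edgeR in the other 4 diet comparisons. Shares in brackets are of genes called after adjustment and give no background for the counts at an unadjusted p. Between 500 and 50 ppm 0 of 9 were called (0% of tested genes), with 1 at an unadjusted p under 0.05 and 0 by DESeq2 or limma. Between 2% iron and 500 ppm 0 of 9 were called (11.3% of tested genes), with 2 at an unadjusted p under 0.05. DESeq2 called Ppargc1a there, and limma called 0. Between chow and 50 ppm 0 of 9 were called (0.391% of tested genes), with 2 at an unadjusted p under 0.05, while DESeq2 called Pklr and limma called 0. Between the cellulose diet and the other 2% iron diet 0 of 9 were called (0.0811% of tested genes), with 3 at an unadjusted p under 0.05 and 0 by DESeq2 or limma. One of the 3 was G6pc, at 155 ± 87.6 against 296 ± 10.9 CPM (log2 difference -0.94, SE 0.34, adjusted p = 0.274 by edgeR).

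The pathways around the members were described from lists, for 2% iron against 50 ppm, where 8.52% of all tested genes were called higher and 7.17% lower and the median log2 change of all genes was 0.01. Of 26 tested genes of gluconeogenesis and glycogen metabolism 0 were higher and 4 lower (median -0.07). They included Gpd1, the cytosolic glycerol phosphate dehydrogenase, at 424, 490.0 and 605 CPM on 50 ppm and 166, 203 and 288 CPM on 2% iron (log2 -1.21, SE 0.21), and Gk, glycerol kinase (log2 -0.96, SE 0.20). Both act where glycerol enters the pathway. Of 31 genes of glycolysis and glucose entry 12 were higher and 3 lower (median 0.49). Pkm, the pyruvate kinase of most other tissues, went from 11.3, 11.6 and 15 CPM to 57.5, 58.05 and 71.8 CPM (log2 2.30, SE 0.27), and Hk3, a hexokinase, rose as well (log2 1.62, SE 0.35). Macrophages also express both, and the macrophage markers rose in the same mice. The part of those cells was not tested. Slc2a9, a urate transporter of the glucose transporter family, and Pfkm, a phosphofructokinase, fell (log2 -0.60, SE 0.13, and log2 -0.50, SE 0.15).

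Of 27 insulin signalling genes 2 were higher and 1 lower (median -0.08). The adaptor Grb10 (log2 0.87, SE 0.27) and the phosphatase Ptpn1 (log2 0.45, SE 0.09), both known to restrain the insulin receptor, rose, and Tsc2 fell (log2 -0.36, SE 0.10). Of 19 genes of fasting and Foxo1 targets 2 were higher and 3 lower (median -0.15). Igfbp1, which insulin represses, stood at 71.5, 127 and 165 CPM on 50 ppm and at 258, 294 and 452 CPM on 2% iron (log2 1.47, SE 0.43, adjusted p = 0.0348 by edgeR). Apoc3 rose (log2 1.05, SE 0.16), while Igfbp2 (log2 -1.66, SE 0.24) and Cpt1a, the entry enzyme of mitochondrial fatty acid oxidation (log2 -0.92, SE 0.18), fell. Genes of the list thus moved in both directions.

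Of 14 genes of fed-state lipogenesis 1, Acaca, the acetyl-CoA carboxylase of fatty acid synthesis, was higher (log2 1.30, SE 0.40). Of 25 hormonal and transcriptional regulators 2 were higher, Prkaa1 (log2 0.44, SE 0.11) and the glucocorticoid receptor Nr3c1 (log2 0.35, SE 0.10), and 7 were lower. The falls included Nr0b2, the small heterodimer partner that represses bile acid synthesis (log2 -1.80, SE 0.46), and Foxa1 (log2 -0.73, SE 0.23). Of 16 clock genes 2 were lower, Nr1d1 (log2 -1.24, SE 0.39) and Hlf (log2 -0.64, SE 0.18). The summed clock genes stood at 382 to 436 CPM on 2% iron, 504 to 642 CPM on 50 ppm and 485 to 738.5 CPM with cellulose, and the part of clock phase in the members' differences was not tested.

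Across the 114 strains, all on 2% iron, G6pc, Pklr and Ppargc1a had the widest ranges. G6pc ran from 29.1 CPM in BXD31/TyJ through a median of 209 CPM to 887 CPM in BXD38/TyJ, a ratio of 30.5. Pklr ran from 37.1 CPM in NZB/BlNJ through 382 CPM to 881 CPM in BXD79/RwwJ, a ratio of 23.8. Ppargc1a ran from 5.67 CPM in KK/HlJ through 21.6 CPM to 111 CPM in BXD38/TyJ, a ratio of 19.5. For all 3 the extreme strains lay far outside the middle of the panel: the quartiles were 136 and 296 CPM for G6pc, 281 and 487 CPM for Pklr, and 17.8 and 30.4 CPM for Ppargc1a. Pck1 ran from 449 CPM in KK/HlJ through 1798 CPM to 5624 CPM in BXD100/RwwJ, and Irs2 from 23.1 CPM in SEA/GnJ through 45.6 CPM to 196.03 CPM in BXD38/TyJ. Foxo1 ran from 27.9 CPM in KK/HlJ through 70.3 CPM to 169.6 CPM in NZB/BlNJ. The metabolic genes Fbp1 (345.2 to 1082 CPM), Pcx (407 to 1339 CPM) and Slc2a2 (221 to 1028 CPM) had narrower ranges, with ratios of 3.13, 3.29 and 4.66.

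With 1 mouse per strain, a strain's value carries the spread between mice. The SD of log2 CPM over strains was 0.98 for G6pc and 0.73 for Pck1, against an SD between mice within a diet of 0.48 and 0.24. The ratio of the strain SD to the SD between mice was 3.01 for Pck1, the highest of the 9, then 2.57 for Pklr, 2.25 for Irs2, 2.18 for Fbp1 and 2.03 for G6pc. It was lowest for Pcx (1.23) and Foxo1 (1.35). The median over 13410 genes was 1.65, so that the ratios of Slc2a2 (1.51), Foxo1 and Pcx were below it and that of Ppargc1a (1.72) was near it. The SD between mice came from the separate diet table and from C57BL/6J alone.

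**Figure D3:**
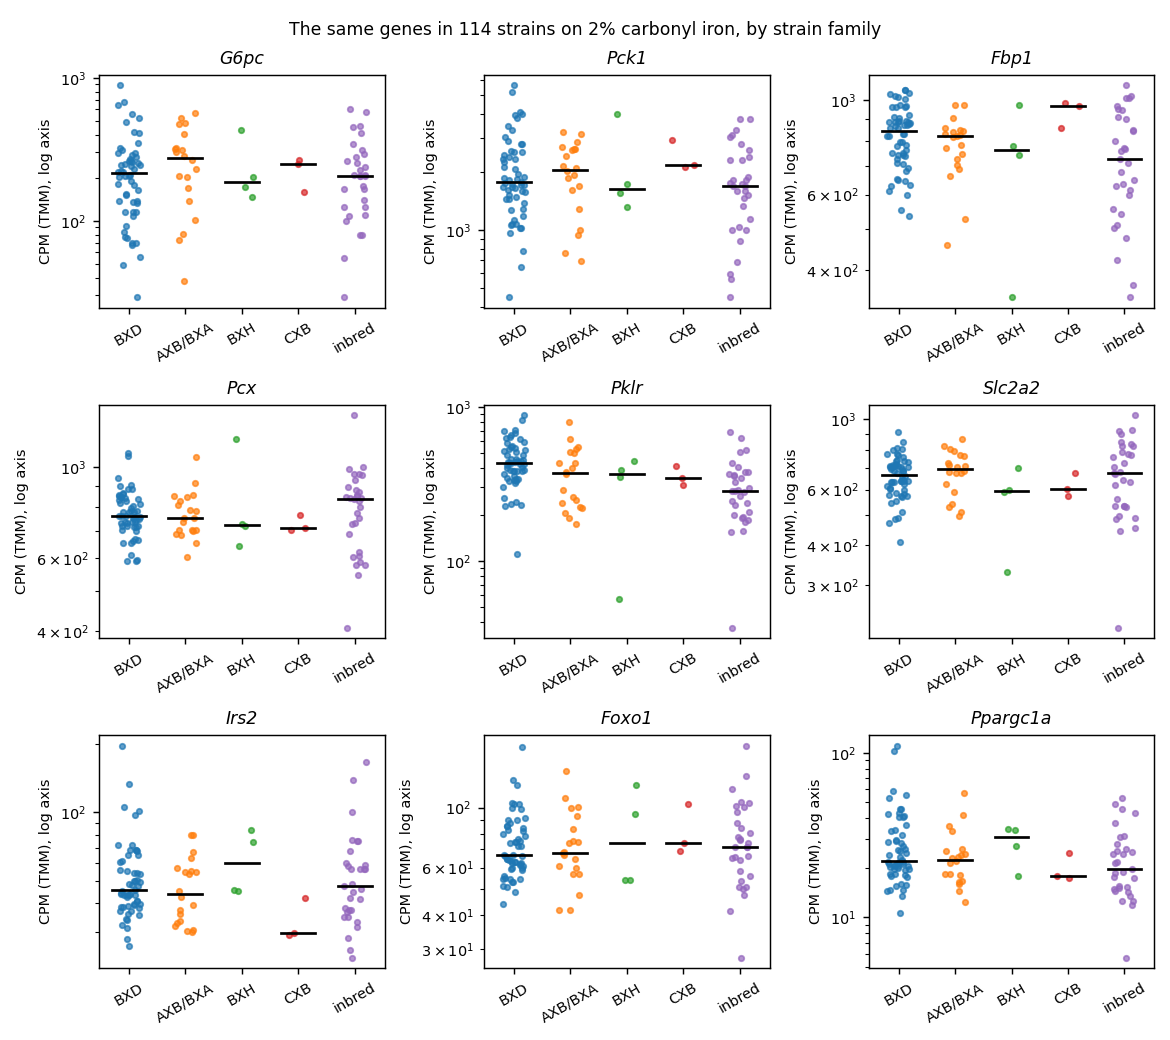
CPM on log axes of the 9 genes in 114 strains by strain family (points), with the family median as a line. The family medians lay close together for most genes, and NZB/BlNJ, then BXH2/TyJ, had the lowest values of Pklr and of Slc2a2.

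A few strains supplied many of the extremes. The share of all tested genes for which these libraries were extreme was not computed, so the counts have no background. NZB/BlNJ was among the 3 lowest or 3 highest strains for 6 of the 9 genes. It had the lowest Pklr, Slc2a2 (221 CPM) and Pcx (407 CPM) and the highest Foxo1, and its sum of pericentral markers was the lowest of the 115 libraries (1505 CPM). Its sums over the lists of insulin signalling (1310 CPM), of fasting and Foxo1 targets (3574 CPM) and of regulators (1458 CPM) were also the lowest. BXD38/TyJ was among the extremes for 5 genes, with the highest G6pc, Irs2 and Ppargc1a and the next to highest Pck1 (5178 CPM) and Foxo1 (167.6 CPM). Its hepatocyte marker sum was 165058 CPM, against a panel median of 121205 CPM, and Dbp was at 6.88 CPM. KK/HlJ was among the extremes for 5 genes, with the lowest Pck1, Foxo1 and Ppargc1a. Its hepatocyte marker sum was the lowest of the 115 libraries (70565 CPM) and its cholangiocyte marker sum the highest, and the part of cell content in its values was not tested.

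The BXD and AXB/BXA families, which share C57BL/6J as a parent and differ in the other, were compared with the strain as the replicate. In edgeR 0 of 9 members had an unadjusted p under 0.05, against 3472 of 13794 tested genes. No member was called by edgeR, 0 of 9 where 11.6% of the tested genes were called, and 0 by DESeq2 or limma. Leaving out BXD65/RwwJ, a library labelled male with Y-linked transcripts at 3.94 CPM in sum against 118 to 328 CPM in the other 114, also gave 0. So did leaving out AXB19a/PgnJ, AXB19b/PgnJ and BXD48a/RwwJ, whose names differ by a letter from AXB19/PgnJ and BXD48/RwwJ. The correlations below count all of these as separate strains. The smallest adjusted p was that of Pklr, which averaged 451 ± 150 CPM over the 56 BXD strains and 378.3 ± 168 CPM over the 20 AXB/BXA strains (SD), a log2 difference of 0.26 (SE 0.14, adjusted p = 0.242).

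Many of the members were correlated with each other over the strains. In all, 72 relations were computed and adjusted together, among them the 36 pairs of members and each member with Hamp (hepcidin, the iron hormone), Dbp and Igfbp1. At a Benjamini-Hochberg adjusted permutation p under 0.05 for Pearson's r, 50 of 72 were called, and 24 of the 36 pairs of members, 21 of them positive. The share of arbitrary gene pairs passing this threshold was not computed. These counts, and those with partner genes below, thus have no background and do not set the members apart from other genes. No member or partner formed separate clusters of strains by the rule used. That rule asked for a gain above 10 in the Bayesian information criterion (BIC) for paired over single normal curves. It also asked for a separation (Ashman's D) above 3 and at least 3 strains per cluster. Dbp and Fbp1 passed the BIC limit (48.9 and 14.2), with D of 1.86 and 1.81. The points share their library and its scaling with each other.

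Pck1, Foxo1 and Ppargc1a were positively correlated with each other. Pck1 with Ppargc1a gave r = 0.663 and rho = 0.616 over 114 strains, Foxo1 with Ppargc1a r = 0.648 and rho = 0.628, and Pck1 with Foxo1 r = 0.612 and rho = 0.652. Each had a permutation p of 1e-05, the smallest 100000 resamples can give, and adjusted p-values of 4.24e-05 for r and 5.14e-05 for rho. Without the 2 strains farthest from the median of the first-named gene they were 0.638, 0.676 and 0.565. Within the BXD strains r was 0.700, 0.817 and 0.682. Within the AXB/BXA strains it was 0.601, 0.577 and 0.828, and only the last passed adjustment there (adjusted p = 0.000720). G6pc went with Pck1 (r = 0.499, rho = 0.571) and with Irs2 (r = 0.455, rho = 0.420), each with adjusted p-values of 4.24e-05 and 5.14e-05. Leaving out the 2 strains farthest from the G6pc median gave r of 0.499 and 0.449.

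**Figure D4:**
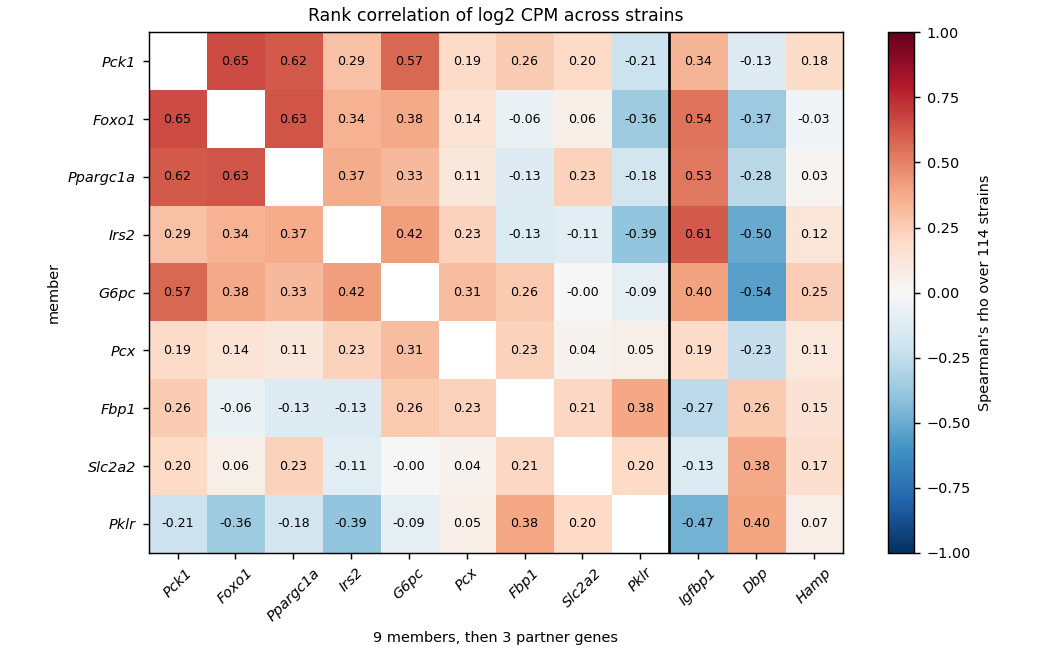
Spearman's rho of log2 CPM over 114 strains (colour and printed value) between the 9 members (rows) and the members and 3 partner genes (columns, partners right of the line). Pck1, Foxo1 and Ppargc1a form a positive block, and Pklr is negative with Foxo1, Irs2 and Igfbp1.

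Igfbp1, whose transcript insulin represses, was related to Irs2 and Pklr in opposite directions. Irs2 went with Igfbp1 (r = 0.634, rho = 0.611; 0.587 without 2 strains), and Igfbp1 was positively related to 5 members and negatively to 3. Pklr ran against Igfbp1 (r = -0.492, rho = -0.469; -0.440 without 2 strains). These had adjusted p-values of 4.24e-05 for r and 5.14e-05 for rho. Pklr also ran against Irs2 (r = -0.415, rho = -0.394, adjusted p = 7.20e-05 and 5.14e-05) and Foxo1 (r = -0.428, rho = -0.358, adjusted p = 7.20e-05 and 0.000651), at -0.374 and -0.321 without the 2 strains. Within the BXD strains Pklr gave r = -0.545 with Irs2 and r = -0.527 with Igfbp1.

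Fbp1 and Pklr, enzymes of opposite directions, were positively related (r = 0.582, rho = 0.385, adjusted p = 4.24e-05 and 0.000135). Without BTBR T<+> tf/J and BXH2/TyJ r was 0.515, and within BXD it was 0.339. NZB/BlNJ, at 37.1 CPM for Pklr and 369 CPM for Fbp1, was not among the strains left out there. Pklr with Slc2a2 gave r = 0.434 and rho = 0.195 (adjusted p = 7.20e-05 and 0.0592). Without NZB/BlNJ and BXH2/TyJ r was 0.171 (adjusted p = 0.108), so that over the whole panel the call rests on those strains, while within the BXD strains, which include neither, r was 0.303 (adjusted p = 0.0481).

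Clock output moved with several members. Dbp ran from 0.374 to 270.3 CPM over the strains and was negatively related to Irs2 (r = -0.525, rho = -0.502) and G6pc (r = -0.466, rho = -0.540), with adjusted p-values of 4.24e-05 and 5.14e-05. Without the 2 strains farthest from the median of Irs2 or G6pc, r was -0.528 and -0.457. It was positively related to Slc2a2 (r = 0.430, rho = 0.382, adjusted p = 4.24e-05 and 0.000200; 0.384 without 2 strains) and Pklr (r = 0.424, rho = 0.398, adjusted p = 0.000103 and 0.000169; 0.374 without 2 strains). Its part in the relations among the members was not tested. For Hamp, r passed adjustment with 6 of 9 members, rho with 1 and r without the 2 strains with 1. Within families r passed with none in BXD or AXB/BXA and with 3 in the 31 other inbred strains (G6pc, Pcx and Slc2a2, adjusted p = 0.0325 each). G6pc was the member that passed by each measure over all strains (r = 0.275, rho = 0.250, adjusted p = 0.00642 and 0.0161; r = 0.278 without 2 strains, adjusted p = 0.00733). Its r with Hamp was 0.452 in the other inbred strains and 0.159 in BXD (adjusted p = 0.355), a difference that was not tested. Pklr with Hamp gave r = 0.229, rho = 0.066 and, without 2 strains, r = 0.044.

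**Figure D5:**
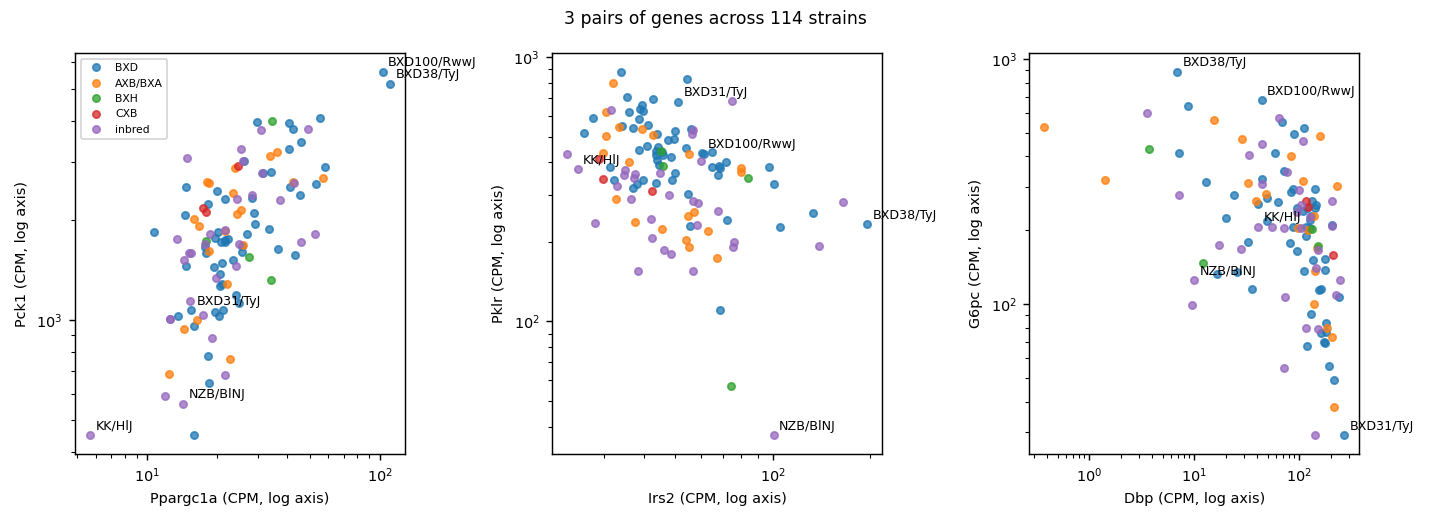
CPM on log axes of Pck1 against Ppargc1a, Pklr against Irs2, and G6pc against Dbp in 114 strains coloured by family, with 5 strains named. BXD38/TyJ and BXD100/RwwJ lie at the upper end of Pck1 and Ppargc1a, NZB/BlNJ lies lowest for Pklr, and BXD31/TyJ has the lowest G6pc and the highest Dbp.

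The transcripts most alike to each member over the 114 strains, among 12063 genes by Spearman's rho, were as follows, given as a description. For Pck1 they were Tat, the tyrosine aminotransferase that glucocorticoids induce (rho 0.736), Slc25a32 (0.706) and Klf15 (0.706), a factor of amino acid catabolism. G6pc had Slc25a25 (0.693), Angptl4 (0.605), a lipoprotein lipase inhibitor raised in fasting, and Slc45a3 (0.603). Irs2 had Btg1 (0.674), Pnrc1 (0.664) and Pdk4 (0.651), the kinase that shuts off pyruvate dehydrogenase. For Ppargc1a they were Pptc7 (0.751), Slc7a2 (0.742) and Tbc1d8 (0.732), and for Foxo1 Cep85l (0.793), Susd6 (0.787) and Il6ra (0.785).

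Pklr was most like Hcn3 (rho 0.860), then Acly (0.797) and Fasn (0.765), enzymes of fatty acid synthesis. Hcn3 lies on the opposite strand and overlaps the 3′ end of Pklr (GRCm38 chr3:89136142-89146784 for Pklr and chr3:89146074-89160196 for Hcn3), and the strand setting of the counting is not given in the sources used here, so reads of this pair may not be told apart. Fbp1 had Mettl7b (0.611), Urah (0.610) and Slc12a7 (0.555), and Pcx had Uck1 (0.606), Chdh (0.568) and Fpgs (0.566). Slc2a2 had Fnip2 (0.595), Slc16a12 (0.594) and Cyp2g1 (0.590). Genes on the opposite strand also overlap Pcx, Slc2a2, Irs2, Foxo1 and Ppargc1a, while none overlaps G6pc, Pck1 or Fbp1.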

How the data were processed

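Liver RNA of 130 male mice had been sequenced with a stranded mRNA kit, per the labels. The authors deposited estimated counts and TPM per gene, with kallisto 0.46 and mm10 listed in the submitters' processing notes; how transcripts were summed to genes and which strand was counted are not given in the sources used here. The diet and strain tables were made separately and never pooled in a test. Symbols came from GENCODE M21.

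Estimated counts were rounded and tested with edgeR 4.0.16 (quasi-likelihood test, TMM factors, filterByExpr, Benjamini-Hochberg adjustment, R 4.3.3), with the 15 diet mice in one fit and the 2 strain families in another. Calls were made where the adjusted p fell under 0.05. Log2 CPM used a prior count of 2. Nothing says whether mice of a diet shared a cage or day, and p-values measure the spread between these mice. Correlations used 100000 permutations, two-sided, with 20000 where 2 strains were left out, and the 2 mice of 129X1/SvJ averaged. One gene among those related to the members is not reported here.

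Apart from cell type markers and partner genes, most genes other than the 9 were named by rule. Per pathway list these were the 2 largest called rises and falls in 2% iron against 50 ppm, with the 3 genes most alike to each member. Elovl6 and the diet values of Fasn, given below for 2% iron against chow, were picked outside that rule. The members and lists were chosen with earlier results of these data known. Counting and correlation code was tested on simulated data. The alternatives were DESeq2 1.42.0, limma 3.58.1 on log2(TPM + 1) and log2(TPM + 0.1), RLE factors, other filters, a fit of only the groups compared, and each mouse left out. RefSeq promoter windows on GRCm38.p6 were searched with Python 3.11.15.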

Additional observations from a re-analysis of the deposited data

Results flagged for a closer look

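In the 4 BXH strains, BXH8/TyJ lay far from the other 3 for Pck1 (3997 CPM, with a gap to its neighbour of 0.848 of the whole range) and for Pcx (1169 CPM, 0.838 of the range). Both gaps are above Dixon's 95% critical value for 4 samples. Chance alone passes it in about 1 of 20 groups, and 9 genes were looked at. For G6pc the same strain had the highest value of the 4 (430.9 CPM, 0.803 of the range), below that limit.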

How the results depend on the processing

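For 2% iron against 50 ppm the count of called members was 1 in edgeR and 0 with limma on log2(TPM + 0.1) or log2(TPM + 1). For 2% iron against 500 ppm it was 1 (Ppargc1a) with DESeq2, and for chow against 50 ppm it was 1 (Pklr) with DESeq2, with at least 10 counts in every library and with no filter. The cause of these shifts was not tested. Leaving out each mouse in turn gave 0 to 1 called members for 2% iron against 50 ppm, 0 to 0 against 500 ppm and 2 to 4 against chow, 0 to 1 for the cellulose diet against 2% iron and 1 to 3 against 50 ppm, 0 to 0 for 500 against 50 ppm and 0 to 1 for chow against 50 ppm. The member called for 2% iron against 50 ppm was Irs2 in a fit of only those groups (adjusted p = 0.0191) and Pklr without replicate 2 of the 50 ppm group (0.0276). The BXD to AXB/BXA count stayed at 0 in the alternatives run. Of the 72 relations, 47 were called on log2(TPM + 1) (41 of them among the 50), 50 with a prior count of 0.5, 51 centred within families, 39 without the 2 farthest strains and 50 without BXD65/RwwJ, a setting chosen after seeing the data. No called value changed sign. The lowest counts behind a member's value were those of Ppargc1a, 104.1 in the diet study and 68.1 in the panel, so counting noise weighs most on that gene. No paired analysis was possible because the labels give no replicate numbers.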

Other observations

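The 2 mice of 129X1/SvJ, the one strain sequenced from more than 1 animal, differed for some members and little for others. Pck1 stood at 666.7 and 1346 CPM and G6pc at 285 and 529.7 CPM, while Dbp stood at 59.0 and 7.08 CPM. Pcx stood at 861 and 896 CPM, Fbp1 at 929.8 and 968 CPM and Ppargc1a at 13.01 and 12.1 CPM. The mouse with less Pck1 and G6pc had more Dbp, and with 2 mice this has no test.

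BXH2/TyJ and NZB/BlNJ had in common low Pklr, Slc2a2 and Fbp1 with high Foxo1. BXH2/TyJ stood at 56.8 CPM for Pklr, 331.1 CPM for Slc2a2 and 347 CPM for Fbp1, each the next to lowest of 114 strains, with Foxo1 at 121 CPM and Igfbp1 at 2717 CPM. These strains were picked out after their values were seen.

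Against chow, 5 of 14 genes of fed-state lipogenesis were higher on 2% iron and 0 lower, where 11.9% of all tested genes were called higher. Iron and the rest of the diet cannot be told apart there. Against 50 ppm 1 of the 14 was higher, where 8.52% of all tested genes were called higher. The summed lipogenic genes stood between 7766 and 24852 CPM on 50 ppm and between 8193 and 31681 CPM on 2% iron, ranges that overlap. Fasn, fatty acid synthase, stood at 1870.2 ± 1281 CPM on 2% iron and 637 ± 183 CPM on chow (SD, n = 3; log2 1.55, SE 0.52, adjusted p = 0.0448 by edgeR), and Elovl6, a fatty acid elongase, had a log2 change of 1.77 (SE 0.50, adjusted p = 0.0204). With cellulose, the summed lipogenic genes stood between 3736 and 16749 CPM, against 8193 to 31681 CPM in the other 2% iron group. The ranges overlapped, and 0 of the 14 genes were called between these groups.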
